A study of Saccharomyces cerevisiae with 16 samples.

Results

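The genes described here are MEC1, RAD53, DDC1 and RAD17 of Saccharomyces cerevisiae, which code for sensors and kinases of the DNA replication checkpoint. They were chosen by name, as the spots whose single gene symbol was one of these 4. Each gene had 1 spot, so 4 spots of the 3344 with a single gene name, and of 6912 in all, were members. The files and the reference annotation pair them with the systematic names YBR136W (MEC1), YPL153C (RAD53), YPL194W (DDC1) and YOR368W (RAD17).

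In budding yeast, Mec1 is the kinase that is recruited to single-stranded DNA at stalled replication forks. Ddc1 and Rad17 form, together with Mec3, a ring-shaped clamp that is loaded at damaged or stalled DNA and stimulates Mec1. Rad53 is the effector kinase that Mec1 switches on, and it acts on Dun1, a further kinase through which ribonucleotide reductase is raised. Signalling through these proteins is known chiefly as phosphorylation, whereas the slides measured only transcript ratios.

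Strain CDY59, labelled wild-type, was grown in rich YPD medium to an optical density of 0.5. Treated cells were then kept in 200 mM hydroxyurea for 1, 2, 4 or 6 h. The labels do not say whether treated and untreated cells came from the same culture. Hydroxyurea inhibits ribonucleotide reductase and so slows replication. Treated RNA and RNA of an untreated culture shared each 2-colour slide. Each of the 4 times had 2 slides, 1 with treated RNA in channel 1 and 1 with it in channel 2. Each of the 8 slides had 2 readings titled faible and fort (French for weak and strong), 16 in all, and the labels do not say what set them apart. The labels give neither mating type nor further genotype. Every time was set against the same kind of untreated culture, so time in culture and time in hydroxyurea cannot be told apart. The labels do not say that slides held separate cultures, so the p-values measure the spread between slides, which may be technical.

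Values are log ratios of treated over untreated RNA, taken as log2 because no source gives the base, and every fold below holds only for base 2. They were centred so that 0 is the median gene of each reading, and faible and fort values were then averaged. The labels name no numerator. The 8 slides were turned to treated over untreated on the assumption that all were deposited with the same channel as numerator. The overall sign was set so that the mean of RNR2 and RNR4, textbook hydroxyurea-induced genes, was above 0. Directions are therefore likely and not established. RNR2 itself was above 0 on 7 of 8 slides. On the channel 1 slide of 1 h it was at -0.98, where RNR4 was at 0.14. Across the 3344 spots with a single gene name, the readings of a slide correlated at 0.846 to 0.960. Across 3127 genes, the slides of a time correlated at -0.0809 (1 h), -0.0339 (2 h), 0.504 (4 h) and 0.579 (6 h). The early times therefore carry little agreement between orientations. Signal over background is unknown, and the number of slides limits the precision.

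None of the 4 checkpoint genes passed the test at any time or in the mean over the 4 times. Their mean log2 ratios were 0.15 for MEC1, 0.14 for RAD53, 0.14 for DDC1 and -0.07 for RAD17. Over all 3127 genes, 18.8% passed in the mean by limma at an adjusted p under 0.05. With single times the shares were 0.799%, 4.19%, 2.81% and 6.01% for 1, 2, 4 and 6 h. At these shares, a count of 0 of 4 members is not set apart from the rest of the genes.

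MEC1, the sensor kinase gene, lay above the median gene on 6 of 8 slides. With treated RNA in channel 1 its log2 ratio was 0.44, 0.345, 0.38 and 0.44 for 1, 2, 4 and 6 h. With treated RNA in channel 2 it was -0.215, -0.555, 0.04 and 0.305 for 1, 2, 4 and 6 h. Every channel 1 slide was above every channel 2 slide, so the sign at 1 h and 2 h depended on the orientation. Across all genes, 23.9% had 2 sets of slides that did not overlap in this way.

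The model combined both orientations into an estimate per time. For MEC1 these were 0.11 ± 0.18 (SE), -0.105 ± 0.18, 0.21 ± 0.18 and 0.37 ± 0.18 for 1, 2, 4 and 6 h. The 6 h value was the nearest to the threshold among single times of the 4 members, with a limma adjusted p of 0.229 and an unadjusted p of 0.0728. Its 95% interval ran from -0.04 to 0.79. In the mean over times MEC1 stood at 0.15 ± 0.09 (limma adjusted p = 0.275), with an interval of -0.06 to 0.36, or 0.959-fold to 1.28-fold. The error of this and every other mean over times holds the spread between slides, not the spread between times.

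The channel 1 slides of MEC1 exceeded the channel 2 slides by 0.51 ± 0.18 on the log2 scale (limma adjusted p = 0.0815). This effect passed under 3 of 18 alternatives and not under the others. The 3 were readings scaled to one spread, quantile normalization and a variance trend (limma adjusted p = 0.0456, 0.0181 and 0.0426). Across all genes 17.3% passed for this effect of orientation in the main model. Under the 3 alternatives, 815, 947 and 1021 of the 3127 genes passed for it, in the same order. On the channel 1 slides alone MEC1 had a mean of 0.40 (SD 0.0470, n = 4) and passed (limma adjusted p = 0.0217), where 27% of all genes passed. The mean on the channel 2 slides alone was -0.11 (SD 0.367, n = 4, limma adjusted p = 0.725). On values as deposited, where the median gene stood at 0.20, the MEC1 mean of 0.34 also passed (limma adjusted p = 0.0471). So did the means of 1042 of the 3127 genes in that setting, counting MEC1.

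DDC1 codes for the clamp subunit that in budding yeast contacts and stimulates Mec1. With treated RNA in channel 1 its log2 ratio was 0.28, 0.615, 0.265 and 0.21 for 1, 2, 4 and 6 h. In the other orientation it was -0.24, -0.295, 0.375 and -0.075 for 1, 2, 4 and 6 h. All channel 1 slides were above 0, while only the 4 h slide was above 0 in channel 2, and the 2 sets of slides overlapped.

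The estimates for DDC1 were 0.02 ± 0.20, 0.16 ± 0.20, 0.32 ± 0.20 and 0.07 ± 0.20 for 1, 2, 4 and 6 h. The highest, at 4 h, had a limma adjusted p of 0.407 and an interval of -0.14 to 0.78. It was also the only time at which both orientations lay above 0 by over 0.2. The mean over times was 0.14 ± 0.10 (limma adjusted p = 0.328), with an interval of -0.09 to 0.37. DDC1 differed between orientations by 0.40 ± 0.20 (limma adjusted p = 0.174).

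On values as deposited, DDC1 passed at 4 h with 0.785 (limma adjusted p = 0.0369), where the median gene itself stood at 0.46. RAD53 did so at 4 h with 0.70 (limma adjusted p = 0.0494). Neither gene passed relative to the median gene. As deposited, 726 of the 3127 genes passed at 4 h, 668 of them higher.

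RAD17 codes for the other clamp subunit measured. Its channel 1 slides had log2 ratios of 0.055, -0.275, 0.005 and -0.415 for 1, 2, 4 and 6 h. Its channel 2 slides had -0.085, 0.105, 0.025 and 0.05 for 1, 2, 4 and 6 h. RAD17 thus stayed within 0.105 of the median gene on all slides but the 2 h and 6 h slides with treated RNA in channel 1, where it was lower.

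Model estimates for RAD17 were -0.015 ± 0.17, -0.085 ± 0.17, 0.015 ± 0.17 and -0.18 ± 0.17 for 1, 2, 4 and 6 h, with limma adjusted p from 0.512 to 0.983. Its mean was -0.07 ± 0.09 (limma adjusted p = 0.591), with an interval of -0.27 to 0.13, or 0.832-fold to 1.10-fold. It had the smallest spread of the 4 genes, with an SD of 0.184 over the 8 slides against 0.254 for RAD53, 0.316 for DDC1 and 0.364 for MEC1. RAD17 was the only member whose channel 1 slides were on average the lower ones, by -0.18 ± 0.17 (limma adjusted p = 0.463). Its sign turned to 0.12 on values as deposited, where the median gene stood at 0.20.

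RAD53 codes for the effector kinase. With treated RNA in channel 1 its log2 ratio was 0.265, 0.195, 0 and 0.275 for 1, 2, 4 and 6 h. With treated RNA in channel 2 it was 0.205, -0.39, 0.47 and 0.09 for 1, 2, 4 and 6 h. Both orientations were above 0 at 1 h and at 6 h, and the 2 h slide of channel 2 was the single one below 0.

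RAD53 had estimates of 0.235 ± 0.20, -0.10 ± 0.20, 0.235 ± 0.20 and 0.18 ± 0.20 for 1, 2, 4 and 6 h, with limma adjusted p from 0.519 to 0.832. Its mean over times was 0.14 ± 0.10 (limma adjusted p = 0.342), with an interval of -0.09 to 0.37, or 0.939-fold to 1.29-fold. The orientations differed by 0.09 ± 0.20 (limma adjusted p = 0.761), the smallest such difference among the members.

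**Figure D1:**
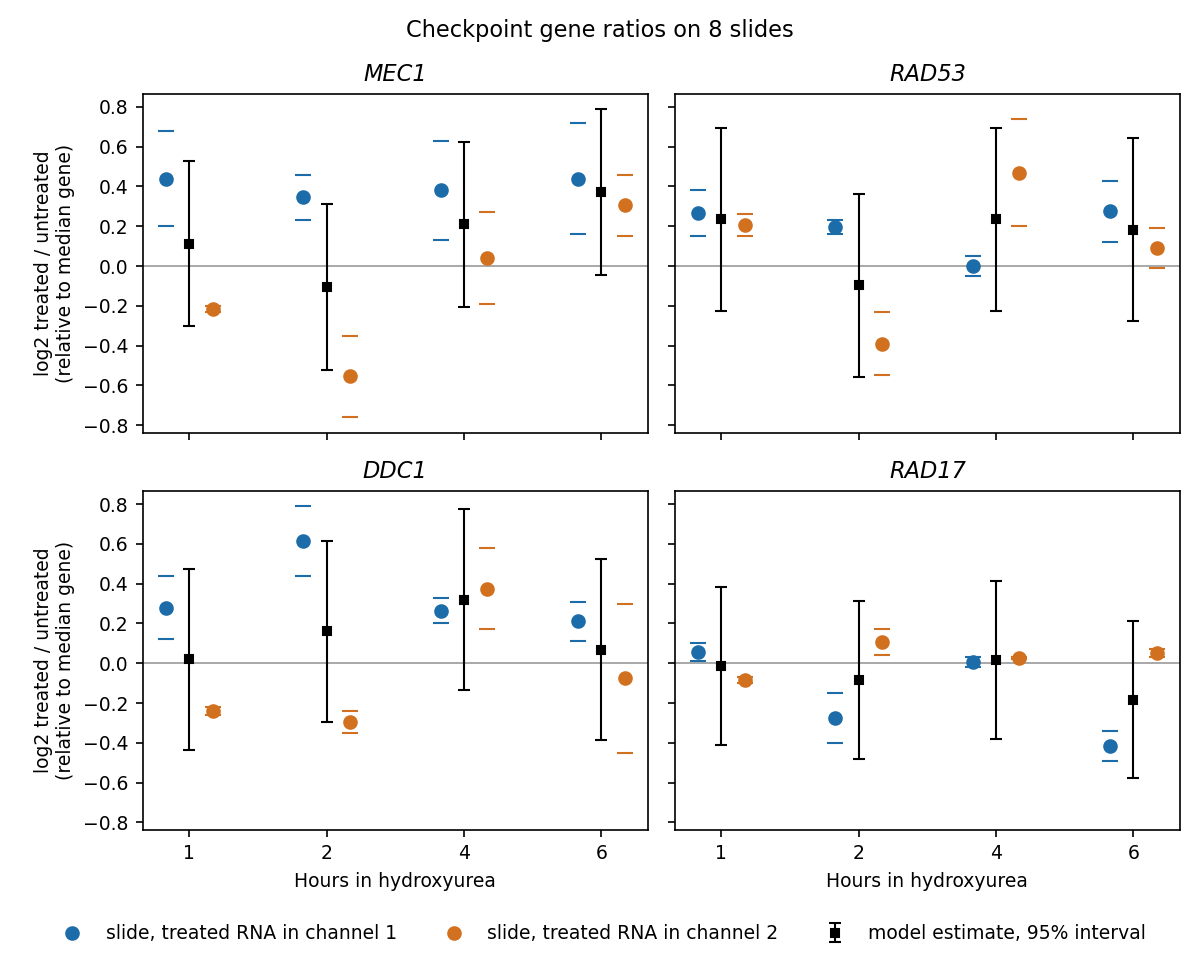
Log2 ratio of treated over untreated RNA (vertical axis, relative to the median gene) against hours in hydroxyurea for each checkpoint gene. Circles are slides (blue, treated RNA in channel 1; orange, in channel 2), dashes the readings behind them, and black squares the model estimate with its 95% interval. Every interval crosses 0, and the blue MEC1 circles, at 0.345 to 0.44, all lie above the orange ones.

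The readings of a slide were not replicates, and by median their gap was widest for MEC1. The fort value was farther from 0 than the faible value on 7 of 8 slides for MEC1 and DDC1, 6 for RAD53 and 8 for RAD17. How often this held over all genes was not counted, so it is not shown to be particular to these genes. The median absolute gap between the readings was 0.435 for MEC1, 0.26 for DDC1, 0.215 for RAD53 and 0.07 for RAD17. The largest gap was that of DDC1 on the channel 2 slide of 6 h, where faible gave 0.30 and fort -0.45. For MEC1 the widest gap was on the channel 1 slide of 6 h, with 0.16 by faible and 0.72 by fort.

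The comparison between times addresses whether transcript ratios changed as treatment went on. The order from the lowest to the highest estimate was 2, 1, 4 and 6 h for MEC1, and 1, 6, 2 and 4 h for DDC1. For RAD17 it was 6, 2, 1 and 4 h. RAD53 was lowest at 2 h and next at 6 h, with 1 h and 4 h tied at 0.235. No neighbours in these orders differed beyond their error. Of the 24 differences between 2 times over the 4 genes, 0 passed by limma, and 0 had an unadjusted p under 0.05. The widest was MEC1 at 6 h over 2 h, by 0.48 with an interval of -0.11 to 1.07 (limma adjusted p = 0.337).

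MEC1 at 4 and 6 h minus 1 and 2 h was 0.29 ± 0.18 (limma adjusted p = 0.40), with an interval of -0.13 to 0.70. The same difference was 0.14 ± 0.20 for RAD53, 0.10 ± 0.20 for DDC1 and -0.03 ± 0.17 for RAD17. MEC1 at 6 h minus 1 h was 0.26 ± 0.25 and RAD17 -0.17 ± 0.24, while RAD53 and DDC1 stood at -0.05 ± 0.28 and 0.05 ± 0.28. The F-test of any difference among times gave limma adjusted p of 0.693 for MEC1, 0.820 for RAD53, 0.870 for DDC1 and 0.930 for RAD17. In all 3 of these comparisons the share of genes that passed by limma was 0%, with 549, 237 and 377 genes at an unadjusted p under 0.05, so a missing call says little about the members.

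The size of change that could be seen sets the frame for these values. In the mean, the smallest absolute log2 ratio among genes that passed was 0.27, and the median gene by absolute size stood at 0.16. At a single time the smallest that passed was 1.01, 0.68, 0.76 and 0.675 for 1, 2, 4 and 6 h. The members' means were larger in absolute size than those of 46.2% of genes for MEC1, 44.5% for DDC1, 43.3% for RAD53 and 20.8% for RAD17. Their intervals in the mean stayed between -0.27 and 0.37, so changes of the size measured for the members were not detectable with 8 slides, while an average rise of the size seen for DUN1 lay outside them.

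**Figure D2:**
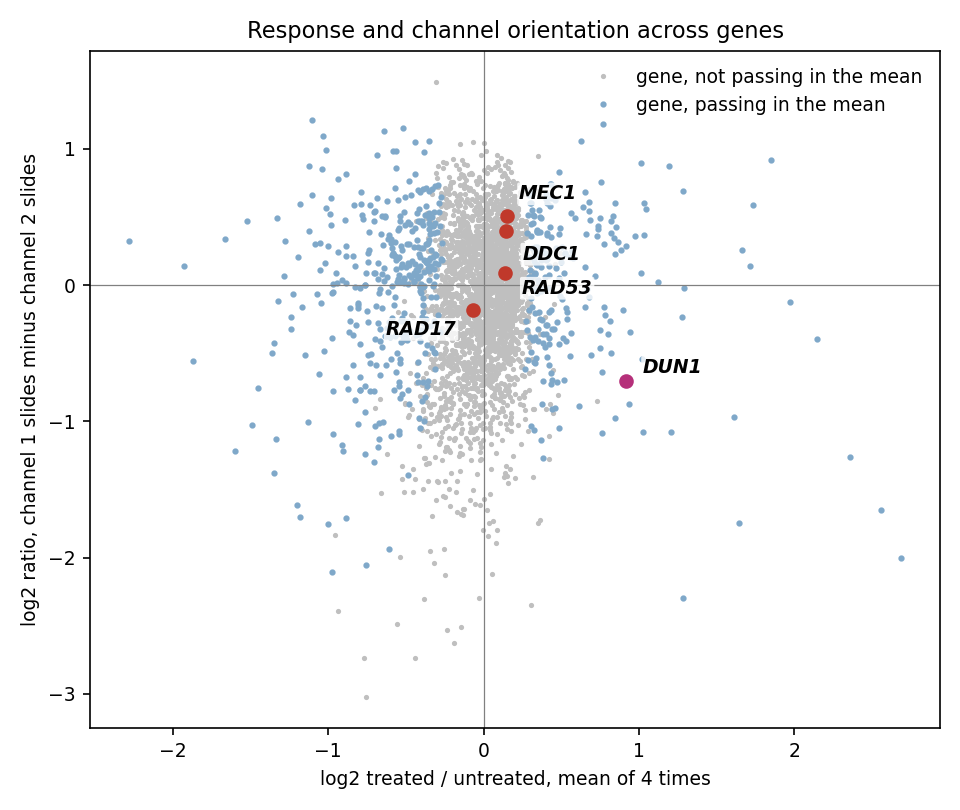
Mean log2 ratio over the 4 times (horizontal axis) against the log2 difference between channel 1 and channel 2 slides (vertical axis) for 3127 genes, with genes that passed in the mean in blue. The 4 checkpoint genes (red) lie in the grey centre, from -0.07 to 0.15, and DUN1 lies to the right at 0.92.

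DUN1, the kinase that acts below Rad53, was the natural contrast within the pathway. Its channel 1 slides had log2 ratios of 0.13, 0.545, 0.345 and 1.245 for 1, 2, 4 and 6 h. On the channel 2 slides they were 0.795, 2.27, 0.81 and 1.21 for 1, 2, 4 and 6 h. All 8 slides were above 0, and the mean of 0.92 ± 0.14 passed (limma adjusted p = 0.00343), as did 2 h (adjusted p = 0.0311) and 6 h (adjusted p = 0.0408). The mean did not pass on the channel 1 slides alone, at 0.57 (limma adjusted p = 0.0671). The 2 h call was lost without the channel 2 slide of that time, at 0.73 (limma adjusted p = 0.180), and without either 1 h slide (adjusted p = 0.0694). The 6 h call was lost without the channel 1 or the channel 2 slide of that time, at 0.73 and 1.72 (limma adjusted p = 0.300 and 0.208), and without either 1 h slide (adjusted p = 0.0724).

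The difference between DUN1 and each checkpoint gene was tested within slides by an exact two-sided sign-flip permutation, a test chosen after the values were seen. DUN1 exceeded RAD17 by 0.99 on average and on 8 of 8 slides (exact p = 0.00781, the smallest possible; 0.0313 adjusted over the 4 genes). It exceeded RAD53 by 0.78 on 7 of 8 slides (exact adjusted p = 0.0313). Against DDC1 the gap was 0.78 and against MEC1 0.77, each on 6 of 8 slides (exact adjusted p = 0.0469). The test does not hold orientation, and the gaps differed with it. On the channel 1 slides DUN1 exceeded MEC1 by 0.165, DDC1 by 0.22, RAD53 by 0.38 and RAD17 by 0.72 on average (n = 4), and was higher than MEC1 and than DDC1 on 2 of 4. On the channel 2 slides the gaps were 1.38, 1.33, 1.18 and 1.25 in the same order, with DUN1 higher on 4 of 4 for each. The difference between orientations was not tested. On the channel 2 slide of 2 h, DUN1 exceeded MEC1 by 2.825. Without that slide the gaps were 0.48 for MEC1, 0.51 for RAD53, 0.52 for DDC1 and 0.82 for RAD17, with exact adjusted p of 0.0938, 0.0625, 0.0938 and 0.0625. Of the 8 slides, only leaving out the channel 1 slide of 1 h kept the adjusted p under 0.05 (exact p = 0.0313 after adjustment for each gene). With 7 slides the smallest p possible is larger than with 8. DUN1 was above RAD17 on every slide, so that unadjusted p stayed at its smallest possible value whichever slide was left out. For RAD17 a lost call therefore cannot be read as dependence on the slide left out. DUN1 was not above MEC1, RAD53 and DDC1 on every slide. For these genes, the part of the slide left out was not separated from that of having fewer slides. Their gaps ran from 0.48 to 0.93, 0.51 to 0.91 and 0.52 to 0.91 with a slide left out.

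The other genes of the pathway were taken from 5 lists, of which 32 of 54 genes were measured. In the mean 4 of the 32 passed by limma (12.5%), beside 18.8% of all genes. All 4 were higher and 0 lower, but RNR2 and RNR4 among them set the sign. Their median was 0.07, beside 0.01 for all genes tested. The counts by list are descriptions, because members and lists were chosen with earlier results known.

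Among sensors and clamp loaders, 1 of 9 measured genes was higher and 0 were lower, with a median of 0.155. The gene that passed was RFA2, a subunit of the protein that coats single-stranded DNA, at 0.43 ± 0.09 (limma adjusted p = 0.0117). RFA2 had 0.895, 1.205, 0.74 and 0.365 on the channel 1 slides at 1, 2, 4 and 6 h. On the channel 2 slides it had 0.15, 0.155, -0.065 and -0.005. Its mean on the channel 2 slides alone was 0.06 (limma adjusted p = 0.795), so the call rests on 1 orientation. RFA2 also lost the call without the channel 1 slide of 1 h at 0.43 (limma adjusted p = 0.0549), and without the channel 2 slide of 6 h, at 0.37 (adjusted p = 0.0714). The clamp loader subunit genes RFC2 and RFC4 stood at -0.27 and -0.20, and RFC3 and RFC5 at 0.035 and 0.16. TEL1, the kinase related to MEC1, was at 0.15 ± 0.09 (limma adjusted p = 0.268).

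The list of mediators had 3 of 9 genes measured and 0 passed by limma. CSM3, which travels with the fork, had the largest mean at 0.155 ± 0.08 (limma adjusted p = 0.213). TOF1 and SLX4 had 0.14 each. Of 4 measured kinases other than the members, DUN1 alone passed. The other effector kinase gene, CHK1, was at 0.07 ± 0.09 (limma adjusted p = 0.587), and CDC7 and DBF4, which code for the kinase that fires origins and its activator, were at 0.12 and -0.23.

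All 10 recovery genes were measured, and 0 passed in the mean by limma. Their median was -0.05, and CKB2, a regulatory subunit of casein kinase 2, had the largest mean in absolute size at -0.34 ± 0.11 (limma adjusted p = 0.0716). PTC2 and PTC3, phosphatases known to act on Rad53, stood at -0.25 ± 0.09 and -0.27 ± 0.20. CKB1, the other regulatory subunit, was higher at 2 h by 1.01 ± 0.16 (limma adjusted p = 0.0142), with slides of 0.64 and 1.375. CKB1 lost that call without the channel 2 slide of 2 h (limma adjusted p = 0.0743). Among 6 measured targets of the kinases, RNR2 and RNR4 passed in the mean at 2.69 ± 0.34 and 2.55 ± 0.25, and they set the sign of all values. The G1/S regulator genes MBP1 and NRM1 were at -0.275 and 0.13 (limma adjusted p = 0.0578 and 0.343).

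**Figure D3:**
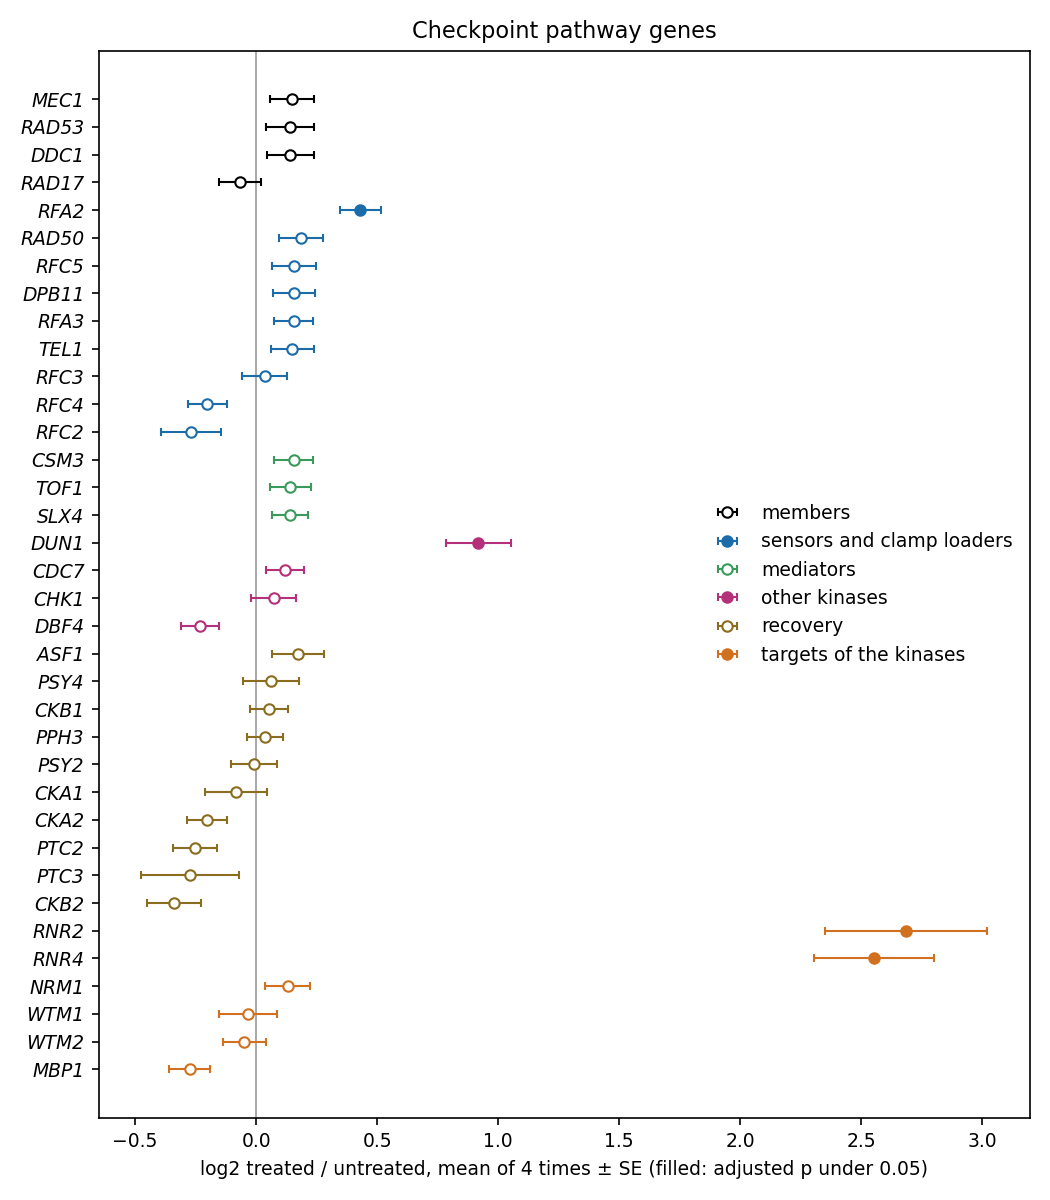
Mean log2 ratio over the 4 times with its standard error (horizontal axis) for the 4 checkpoint genes (black) and the 32 measured genes of the 5 pathway lists, colored by list. Filled circles passed at an adjusted p under 0.05: RFA2, DUN1, RNR2 and RNR4, while the 4 black circles lie from -0.07 to 0.15.

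As a check of cell state, meiosis genes had 4 of 10 measured and 0 passing in the mean by limma, with a median of 0.15. IME2, a meiotic kinase gene, had the largest at 0.23 ± 0.08 (limma adjusted p = 0.0914). Haploid mating genes had 8 of 9 measured, with MF(ALPHA)1 higher at 0.92 ± 0.09 (limma adjusted p = 0.000554) and FAR1 lower at -0.88 ± 0.18 (adjusted p = 0.0129), beside 18.8% of all genes passing. The median of the mating list was -0.15. MF(ALPHA)2 was lower at 6 h, at -1.36 (limma adjusted p = 0.00803), where MF(ALPHA)1 was higher at 1.93 (adjusted p = 0.00331), and MF(ALPHA)2 was higher at 2 h, at 0.92 (adjusted p = 0.0372). Their part in the members' ratios was not tested.

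The genes most like each member were ranked by Pearson's r over the 8 slides. For MEC1 they were MYG1, MUD2 and SND3, with r of 0.996, 0.996 and 0.993. A share of 9.31% of all genes had r over 0.8 with MEC1, so close likeness was common there. For RAD53 they were THP1, CRC1 and KAP104, with r of 0.958, 0.954 and 0.953, and 2.21% of genes over 0.8. DDC1 was most like RNH201, TDA2 and YNL320W, at 0.963, 0.956 and 0.953 (2.78%), and RAD17 most like PHO2, LAS17 and EFM2, at 0.904, 0.892 and 0.889 (0.608%). With the orientation effect removed, r for these 12 genes ran from 0.844 for EFM2 to 0.991 for MYG1. All genes share the slides and their orientation, so these values carry no test.

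Between members, MEC1 and DDC1 had an r of 0.706 over the 8 slides, MEC1 and RAD53 0.556, and RAD53 and DDC1 0.585. With the orientation effect removed the order turned, to 0.409, 0.634 and 0.633 for the same pairs. RAD17 had r of -0.419 with MEC1, -0.414 with DDC1 and -0.370 with RAD53, which became -0.046, -0.091 and -0.324 with the orientation effect removed. The clamp subunit genes DDC1 and RAD17 had the same sign on 4 of 8 slides.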

How the data were processed

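Per the labels, total RNA of the 16 readings came from RNeasy columns and was labelled by the indirect method. The authors deposited log ratios of the 2 channels, taken here as log2; background correction, normalization and base are not given in the sources used here. The deposited readings had medians of -1.03 to 0.45 over all spots. Spot names came from GEO's platform annotation: 3344 of 6912 spots had 1 gene symbol, 387 several and 3181 none. Symbols of 3343 were updated through gene numbers to assembly R64.

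For each reading the median over spots with 1 gene symbol was subtracted. Values were turned to treated over untreated, and averaged within a slide, and spots of a gene were averaged to 3127 genes. limma 3.58.1 in R 4.3.3 fitted a coefficient per time and 1 for channel orientation (3 residual and 4.89 prior degrees of freedom), with two-sided tests and Benjamini-Hochberg adjustment over all genes at 0.05. The same functions were tested on simulated data. Intervals are 95% intervals of this model. From the pathway lists, genes that passed were named, and otherwise that with the largest absolute mean, and further genes of the lists were added outside that rule. The 3 genes most like each member were named. Members, lists and tests were chosen with earlier results of these data known. Genome positions are not given because the build behind the slides is not stated. Alternatives covered centring, scaling, readings, variance settings and single slides.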

Additional observations from a re-analysis of the deposited data

How the results depend on the processing

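Each ratio already pairs treated with untreated RNA within a slide. The labels give the slides no replicate numbers, so slides were not paired across times. Both slides of a time differ in orientation, which the model already holds. Of 696 alternative values for the 4 checkpoint genes over 36 results, 643 kept sign and side of the threshold. A further 7 passed and 46 changed sign without passing, and the cause was not tested. Not all values could change sign, because F values have none and the variance settings leave an estimate as it is. The orientation coefficients below are deviations of one channel from the mean of both, 0.25 for MEC1 and 0.045 for RAD53 in the model of the report, where the difference between channels (0.51 and 0.09) is 2 times as large. That of MEC1 passed under 3 of 18 alternatives. These were readings scaled to one spread, quantile normalization and a variance trend (limma adjusted p = 0.0456, 0.0181 and 0.0426).

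With faible readings alone, genes passing were 5 (1 h), 74 (2 h), 42 (4 h), 109 (6 h), 347 (channel orientation), 1 (any difference among the 4 times). There, values were -0.015 (MEC1 1 h), -0.07 (DDC1 1 h), -0.03 (MEC1 4 h). With readings scaled to one spread, genes passing were 65 (1 h), 39 (2 h), 234 (4 h), 309 (6 h), 10 (4 and 6 h minus 1 and 2 h), 1 (6 h minus 1 h), 815 (channel orientation). There, values were -0.021 (DDC1 1 h), 0.24 (MEC1 orientation coefficient). With quantile normalization, genes passing were 168 (1 h), 324 (4 h), 397 (6 h), 64 (4 and 6 h minus 1 and 2 h), 2 (6 h minus 1 h), 947 (channel orientation), 8 (any difference among the 4 times). There, 7 pathway genes passed in the mean. There, values were -0.016 (DDC1 1 h), 0.35 (MEC1 orientation coefficient). With values as deposited, genes passing were 86 (1 h), 237 (2 h), 726 (4 h), 362 (6 h), 1042 (mean of the 4 times), 78 (4 and 6 h minus 1 and 2 h), 20 (6 h minus 1 h), 86 (any difference among the 4 times). There, 11 pathway genes passed in the mean. There, values were 0.18 (RAD17 1 h), -0.052 (DDC1 2 h), 0.70 (RAD53 4 h), 0.79 (DDC1 4 h), 0.12 (RAD17 6 h), 0.34 (MEC1 mean of the 4 times), 0.12 (RAD17 mean of the 4 times), 0.36 (RAD17 4 and 6 h minus 1 and 2 h), 0.05 (RAD53 6 h minus 1 h), -0.033 (RAD53 orientation coefficient). With centring on all spots, genes passing were 1 (1 h), 81 (2 h), 57 (4 h), 352 (channel orientation). There, values were -0.033 (RAD17 4 h), -0.013 (DDC1 6 h minus 1 h). With fort readings alone, genes passing were 47 (1 h), 167 (4 h), 290 (6 h), 1 (6 h minus 1 h). There, values were -0.07 (DDC1 6 h), -0.18 (DDC1 6 h minus 1 h), 0.77 (DUN1 minus MEC1), 0.88 (DUN1 minus DDC1). With no orientation term, genes passing were 0 (1 h), 5 (2 h), 1 (4 h), 28 (6 h), 255 (mean of the 4 times). With variance trend on mean absolute value, genes passing were 4 (1 h), 225 (2 h), 7 (4 h), 81 (6 h), 893 (mean of the 4 times), 2 (6 h minus 1 h), 1021 (channel orientation), 10 (any difference among the 4 times). There, 9 pathway genes passed in the mean. There, the MEC1 orientation coefficient was 0.25. With slide weights, genes passing were 17 (2 h), 406 (4 h), 575 (6 h). There, the RAD53 orientation coefficient was -0.021. With channel 1 slides alone, 7 pathway genes passed in the mean. There, the MEC1 mean of the 4 times was 0.40. With channel 2 slides alone, genes passing were 139 (mean of the 4 times). There, values were -0.11 (MEC1 mean of the 4 times), -0.059 (DDC1 mean of the 4 times), 0.024 (RAD17 mean of the 4 times). With slides of a time averaged, genes passing were 311 (mean of the 4 times).

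Leaving out each slide in turn gave ranges of genes passing of 0 to 86 (1 h), 82 to 129 (2 h), 0 to 233 (4 h), 0 to 382 (6 h), 241 to 814 (mean of the 4 times), 0 to 137 (4 and 6 h minus 1 and 2 h), 0 to 4 (6 h minus 1 h), 0 to 280 (channel orientation), 0 to 58 (any difference among the 4 times). The low counts came without a slide of the same time for 1, 4 and 6 h (0 without either 1 h slide, 0 and 6 without the channel 1 and channel 2 slides of 4 h, 13 and 0 without those of 6 h), and the high ones without a 2 h slide. The mean counted 241 without the channel 2 slide of 6 h, 293 without the channel 1 slide of 1 h and 344 without the channel 2 slide of 4 h, and orientation 0 without either 1 h slide. For DUN1 minus a member the ranges were 0.48 to 0.93 (DUN1 minus MEC1), 0.51 to 0.91 (DUN1 minus RAD53), 0.52 to 0.91 (DUN1 minus DDC1), 0.82 to 1.12 (DUN1 minus RAD17). For members whose sign turned the ranges were -0.059 to 0.099 (DDC1 1 h), -0.23 to 0.20 (RAD17 1 h), -0.37 to 0.16 (MEC1 2 h), -0.43 to 0.23 (RAD53 2 h), -0.18 to 0.50 (DDC1 2 h), -0.22 to 0.048 (RAD17 2 h), -0.14 to 0.61 (RAD53 4 h), -0.021 to 0.66 (DDC1 4 h), -0.092 to 0.12 (RAD17 4 h), -0.01 to 0.14 (DDC1 6 h), -0.37 to 0.0067 (RAD17 6 h), -0.047 to 0.33 (RAD53 4 and 6 h minus 1 and 2 h), -0.067 to 0.27 (DDC1 4 and 6 h minus 1 and 2 h), -0.14 to 0.073 (RAD17 4 and 6 h minus 1 and 2 h), -0.12 to 0.011 (RAD53 6 h minus 1 h), -0.032 to 0.13 (DDC1 6 h minus 1 h), -0.38 to 0.047 (RAD17 6 h minus 1 h), -0.037 to 0.14 (RAD53 orientation coefficient). The DUN1 differences lost the call (exact adjusted p of 0.0625 to 0.0938) without any slide but the channel 1 slide of 1 h. The smallest p possible is larger with a slide fewer, and for RAD17 the unadjusted p stayed at it. The lost calls of RAD17 therefore do not show dependence on a particular slide. For MEC1, RAD53 and DDC1 the part of the slide left out was not separated from that of having fewer slides.

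The balance of higher to lower calls moved by over 10 percentage points on values as deposited, from 8 and 17 to 46 and 40 (1 h), 104 and 27 to 87 and 150 (2 h), 19 and 69 to 668 and 58 (4 h), 52 and 136 to 256 and 106 (6 h), 218 and 369 to 816 and 226 (mean), and 226 and 314 to 39 and 569 (orientation). Centred on all spots, 0 were higher and 1 lower at 1 h, and quantile normalization gave 57 and 73 at 2 h and 497 and 450 for orientation. Among other named genes, the call was lost under 8 of 19 alternatives for DUN1 at 2 h and at 6 h, 5 of 19 for CKB1 at 2 h, 5 of 22 for the RFA2 mean, 1 of 22 for the DUN1 and RNR2 means and 0 of 22 for RNR4. The mating genes, meiosis genes and flanking genes were not run under the alternatives. Signal over background is unknown here, and 8 slides limit every interval.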

Other observations

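In the reference annotation's gene order, MEC1 lies between CKS1 and YBR137W, and none of the measured flanking genes overlaps a member. CKS1, which binds the cyclin-dependent kinase, had a mean log2 ratio of -0.41 ± 0.09 (limma adjusted p = 0.0176) and YBR137W 0.49 ± 0.11 (adjusted p = 0.0180), on either side of MEC1 at 0.15. DDC1 at 0.14 lies beside APL5, an adaptor subunit of vesicle traffic to the vacuole, at -0.80 ± 0.09 (limma adjusted p = 0.000804), and RSA1 at 0.27 (adjusted p = 0.0608). RAD17 at -0.07 lies beside RPS12, a ribosomal protein gene, at -1.18 ± 0.12 (limma adjusted p = 0.000554), and SCP1 at 0.10 (adjusted p = 0.375). RAD53 lies beside PEP4, a vacuolar protease gene, at -0.03 (limma adjusted p = 0.832). In all, 4 of the 7 measured flanking genes passed in the mean by limma, beside 18.8% of all genes, and nothing about the checkpoint genes follows from this count.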
